A study of Mus musculus with 6 samples.

Results

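The genes described here are the mouse matrix metalloproteases (Mmp), the ADAM proteases (Adam), the secreted ADAMTS proteases and ADAMTS-like proteins (Adamts, Adamtsl), the tissue inhibitors of metalloproteases (Timp) and the lysyl oxidases (Lox, Loxl). They were chosen by symbol and not by their measured values, as every gene of these families that had a probe set annotated to 1 symbol, with the brightest probe set standing for the gene. The rule gave 87 genes of 19938 genes on the array, namely 22 Mmp, 34 Adam, 18 Adamts, 5 Adamtsl, 4 Timp and 4 Lox genes. Mmp15, Adamts2 and Loxl2 had no such probe set among those used and were not analysed here.

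Expression was measured on Affymetrix Mouse Gene 1.0 ST arrays in embryoid bodies (EBs), the free-floating aggregates that mouse embryonic stem (ES) cells form without Lif. The cells were of the R1 line, an established mouse ES cell line, and were seeded at 35000 cells per ml. EBs that were 4 days old received 2 µM retinoic acid (RA), and RNA was taken before RA (day 0) and after 3 and 4 days of RA (day 3 and day 4), with 2 arrays on each day. No age-matched EBs grown without RA were analysed here, so an effect of RA cannot be told apart from one of culture time. The study describes repeating the culture to give biological replicates of the EB RNA before and at the end of RA. The labels do not tie the 2 arrays of a day to those cultures, and the p-values here rest on the difference between arrays alone, part of which may be technical.

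Metalloproteases of the Mmp, Adam and Adamts families are zinc enzymes that are made as inactive precursors. Mmps cut collagens and other matrix proteins, most Adams sit in the cell membrane and shed the outer parts of other membrane proteins, and Adamts enzymes are secreted and cut proteoglycans and procollagens. Timps bind the active site of these enzymes and block it. Lysyl oxidases act on the product that the proteases degrade, since they oxidise lysines of collagen and elastin and so start the crosslinks of the fibres. In the mouse embryo these genes take part in gastrulation, in the laying down of basement membranes and in the onset of vessel, skeleton and heart formation.

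Array pairs of 1 day correlated at r = 0.999 on each of the 3 days across all genes, and the SD of the difference between the arrays of a pair was 0.117 to 0.125 log2 units. The ES cell factor Pou5f1 had log2 intensities of 6.16 and 6.13 in day 4 EBs, against 10.27 and 10.20 in day 0 EBs. All 5 ES cell markers fell. Of 3 measured RA response genes, the receptor gene Rarb rose by 5.89 log2 units at day 4, Cyp26a1, which encodes an RA-degrading enzyme, fell by 2.32, and Stra8 was at 0.28 and did not pass. Of 5 markers of macrophages and other white blood cells, 4 were below the detection limits on these arrays, among them Ptprc at 5.20 to 5.41 in all arrays. The fifth, Cd68, a lysosomal protein of macrophages and other cells, read 7.01 and 7.18 in day 4 EBs, against 8.79 and 8.65 in day 0 EBs, and so fell by 1.62 log2 units (adjusted p = 2.2e-05). Its part in the falls of Mmp9 and Mmp25 described further on was not tested. Of 5 germ cell and sperm markers, 4 were below those limits too.

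The first question was which of these genes were expressed at all. The study called a gene undetectable where its mean log2 intensity over the arrays was below 6 and its SD below 0.3. By these limits 38 of the 87 genes (43.7%) were below detection, against 6023 of all 19938 genes (30.2%). The families differed widely in this count. Below detection were 12 of 22 Mmp genes, 23 of 34 Adam genes, 2 of 18 Adamts genes (Adamts13 and Adamts16), none of the 5 Adamtsl genes, Timp4 alone of the 4 Timp genes and none of the 4 Lox genes. Intensities of different probe sets are not on 1 scale of abundance, so levels are compared between days and not between genes.

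**Figure D1:**
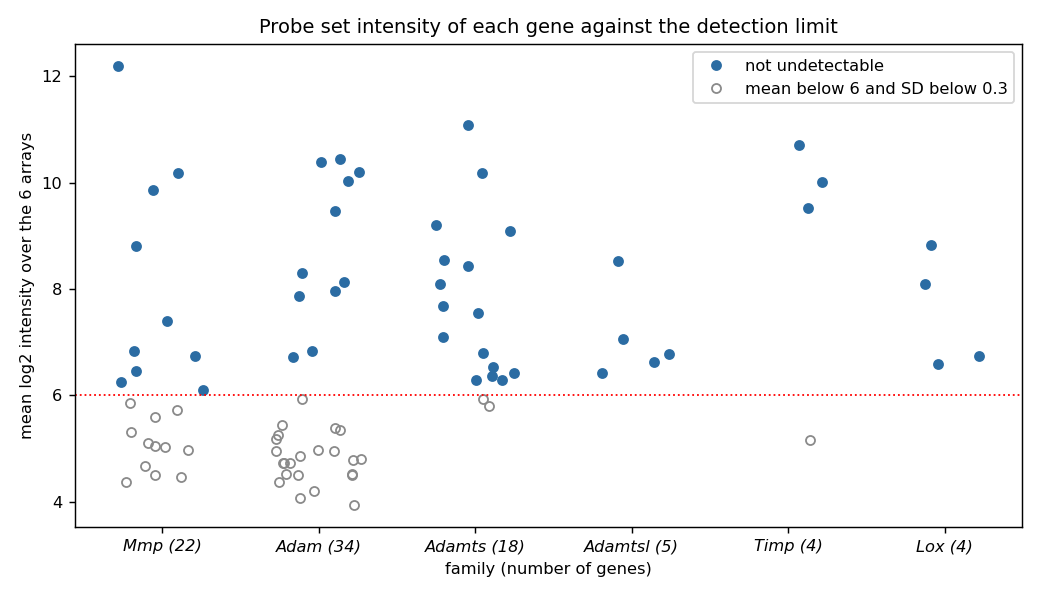
Mean log2 intensity over the 6 arrays of each of the 87 genes (points), by family, with the intensity limit of 6 (dotted line). Open circles are the 38 genes that met both limits of the study; 23 of them are Adam genes and 12 are Mmp genes.

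Many of the undetected genes lie side by side in the genome. The collagenases, stromelysins and their relatives Mmp13, Mmp12, Mmp1b, Mmp3, Mmp1a, Mmp10, Mmp8, Mmp27, Mmp20 and Mmp7 form a run of 10 neighbours on chromosome 9, with less than 1 Mb from one gene start to the next. All 10 were below detection, with day means between 4.27 and 5.83 log2 units. None of the 10 passed the test at day 4 versus day 0, and Mmp10 and Mmp13 passed with falls of 0.20 and 0.24 log2 units at day 3. Neither of these held with each array left out (adjusted p up to 0.157 for Mmp10 without day 0 replicate 2 and up to 0.151 for Mmp13 without day 3 replicate 2). On chromosome 8 there are 3 such runs of Adam genes, which as a group are known for expression in the testis. Adam24, Adam25, Adam20 and Adam39 were all below detection, with day means of 4.17 to 4.88 log2 units. Adam26b, Adam26a, Adam34l and Adam34 were all below detection too, at 3.90 to 5.22 log2 units. In the third run, Adam18, Adam3, Adam5 and Adam32 were below detection, and their neighbour Adam9, a broadly expressed membrane protease, was not. The pairs Adam1a and Adam1b, Adam6a and Adam6b, Adam26a and Adam26b, Adam34 and Adam34l, and Mmp1a and Mmp1b are close copies, and their probe sets may not tell them apart.

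The start regions of detected and undetected genes differed in short motifs. RefSeq promoters on GRCm38.p6, from 250 bases before to 50 bases after the start, were at hand for 53 of the 87 genes, 28 detected and 25 below detection. Motifs were searched on both strands as the letters GGGCGG (the GC box that Sp1 binds), TATAAA (the TATA box), TGACTCA (the AP-1 site) and AGGTCA (the hexamer that nuclear receptors bind, RA receptors among them). GGGCGG was found in 22 of 28 promoters of detected members (78.6%) and in 2 of 25 of undetected members (8.0%). The same split ran through the whole array, where 63.9% of detected and 16.4% of undetected genes had it. TATAAA was found in 2 of 28 detected members (7.14%) and 13 of 25 undetected members (52.0%), against 7.25% of detected and 23.6% of undetected genes on the array. TGACTCA was in none of the 28 and in 8 of the 25 (32.0%), against 3.48% and 7.02% over the array. Those with TGACTCA were Adam1b, Adam29 and, from the run on chromosome 9, Mmp1a, Mmp1b, Mmp3, Mmp7, Mmp10 and Mmp13. TATAAA was in the same genes of that run and in its Mmp8 and Mmp20. Neighbouring relatives and close copies are not independent promoters, so these shares rest on fewer separate cases than the counts. AGGTCA was in 3 of the 28 (10.7%) and 6 of the 25 (24.0%), against 12.0% and 18.4%. Of all 27025 promoters in the table, 35.9% held GGGCGG, 14.2% TATAAA, 5.17% TGACTCA and 16.0% AGGTCA. Direct repeats of AGGTCA with a spacer of 2 or 5 bases, the spacing of many RA response elements, were in none of the 53 promoters and in 2 each of all 27025. Exact repeats are so rare that this search cannot tell whether members hold RA response elements. Motif matches are letters in a window and not shown binding sites. The promoters of 3 genes that rose, 1 gene that fell and 1 undetected gene are shown because they display this contrast, in RefSeq's sequence on GRCm38.p6, 5′ to 3′ along the strand of the gene, with matches to any of these 4 motifs on either strand in capitals.
Adamts1, chr16:85803064-85803363, minus strand: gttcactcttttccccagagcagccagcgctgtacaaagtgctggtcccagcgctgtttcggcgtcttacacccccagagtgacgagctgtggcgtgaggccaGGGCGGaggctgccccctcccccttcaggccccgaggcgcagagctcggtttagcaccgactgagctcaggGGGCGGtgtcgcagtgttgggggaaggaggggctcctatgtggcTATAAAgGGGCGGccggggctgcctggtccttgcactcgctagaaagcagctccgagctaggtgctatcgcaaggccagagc
Mmp11, chr10:75932453-75932752, minus strand: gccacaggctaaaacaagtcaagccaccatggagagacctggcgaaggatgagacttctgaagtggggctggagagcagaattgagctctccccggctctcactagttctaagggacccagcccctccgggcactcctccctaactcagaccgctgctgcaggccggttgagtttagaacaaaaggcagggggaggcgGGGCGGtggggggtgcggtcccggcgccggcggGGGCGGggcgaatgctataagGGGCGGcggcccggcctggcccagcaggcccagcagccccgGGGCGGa
Timp3, chr10:86300162-86300461, plus strand: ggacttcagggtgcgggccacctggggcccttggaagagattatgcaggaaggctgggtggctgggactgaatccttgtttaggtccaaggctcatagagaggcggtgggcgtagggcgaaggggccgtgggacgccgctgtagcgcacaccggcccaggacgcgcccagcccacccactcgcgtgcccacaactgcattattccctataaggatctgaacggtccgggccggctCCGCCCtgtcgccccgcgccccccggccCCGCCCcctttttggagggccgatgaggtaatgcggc
Loxl4, chr19:42612757-42613056, minus strand: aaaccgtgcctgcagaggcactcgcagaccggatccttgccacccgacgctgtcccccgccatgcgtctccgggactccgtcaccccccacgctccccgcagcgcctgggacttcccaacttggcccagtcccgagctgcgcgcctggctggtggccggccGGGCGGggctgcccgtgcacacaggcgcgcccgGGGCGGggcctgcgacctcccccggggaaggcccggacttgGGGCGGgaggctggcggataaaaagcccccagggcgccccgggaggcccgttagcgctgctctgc
Mmp13, chr9:7272264-7272563, plus strand: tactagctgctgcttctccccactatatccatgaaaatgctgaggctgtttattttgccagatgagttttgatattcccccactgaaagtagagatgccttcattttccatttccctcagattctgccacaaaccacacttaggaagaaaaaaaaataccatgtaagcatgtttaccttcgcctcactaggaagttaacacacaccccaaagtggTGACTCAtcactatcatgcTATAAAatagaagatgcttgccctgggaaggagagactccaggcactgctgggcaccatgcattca
The Adamts1 promoter has 3 GC boxes and 1 TATA box, and those of Mmp11, Timp3 and Loxl4 have 4, 2 and 3 GC boxes and no TATAAA. The promoter of Mmp13, a collagenase that was below detection, has no GC box and 1 each of TGACTCA and TATAAA. None of the 5 windows holds AGGTCA.

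The next question was how the genes changed after RA. At day 4 versus day 0, 32 of the 87 genes rose and 9 fell at an adjusted p of 0.05 or below in a limma fit over all genes, and 46 did not pass. Of all genes on the array 51.5% passed, 25.9% higher and 25.6% lower, so the members passed about as often as any gene (47.1%) and their calls lay more on the side of rises (36.8%) than of falls (10.3%). At least 2-fold higher were 21 members (24.1%), against 5.82% of all genes, and at least 2-fold lower were 4 (4.6%), against 4.61%. The median change was 0.06 log2 units over the members and -0.00 over all genes. Among the 49 members not below detection, 28 rose (57.1%) and 9 fell (18.4%), beside 34.5% and 34% of all such genes. In all, 75.5% of these members passed, beside 68.6% of such genes. The detection limits use the mean and SD over all 3 days, so genes that change are kept more often. These shares are therefore partly set by the filter. In bulk RNA, fewer cells of a type and less RNA per cell cannot be told apart, and the same holds for more.

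At day 3 versus day 0, 30 members rose, 17 fell and 40 did not pass, with 23.8% of all genes higher and 28.1% lower (51.9% in all). The 6023 genes below detection leaned to falls here, with 713 lower (11.8%) and 176 higher (2.92%). The part of this shift of dim genes in the small day 3 falls of dim members was not tested. At least 2-fold higher were 15 members, against 5.14% of all genes, and at least 2-fold lower were 4, against 4.09%. Both comparisons use the same day 0 arrays, so they are not independent of each other. Between day 4 and day 3, 21 members were higher and 7 lower, with 15.8% of all genes higher and 12.2% lower (28.1% in all). Genes below detection leaned the other way in this step, with 334 higher and 80 lower. The change of at least 2-fold in this last day was seen in 2 members, both higher, against 0.376% of all genes higher and 0.391% lower. In every member that passed in any of the 3 comparisons the 2 arrays of one day lay wholly above or below those of the other. The same was true of every gene on the array that passed, so it is not particular to the members. These were 10260 genes at day 4 versus day 0, 10345 at day 3 versus day 0 and 5593 at day 4 versus day 3.

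**Figure D2:**
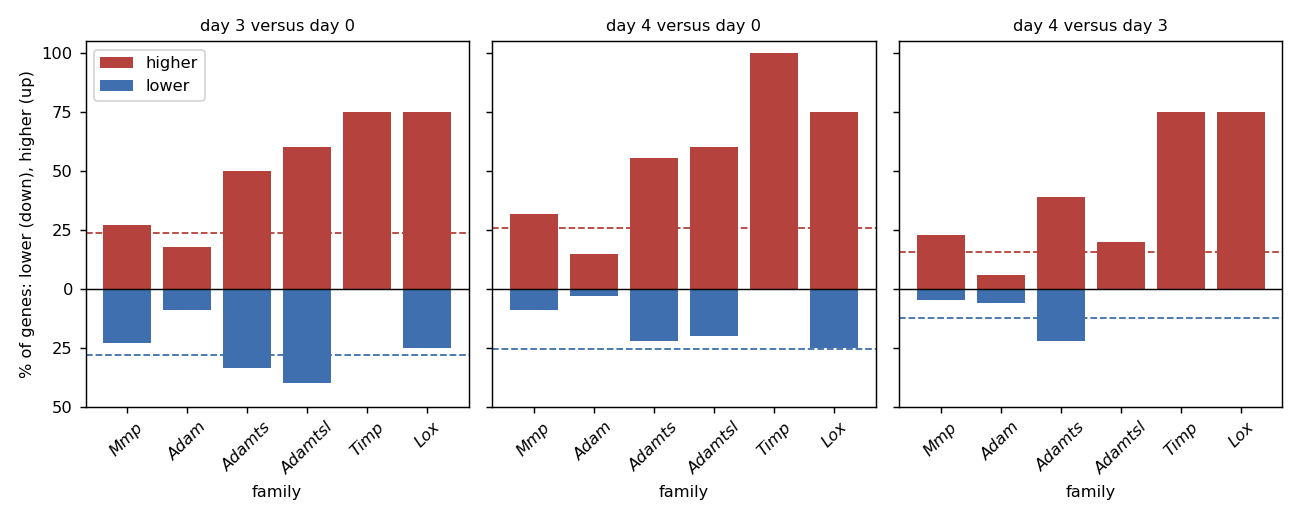
Percent of the genes of each family that were higher (up, red) or lower (down, blue) at an adjusted p of 0.05 or below in each of the 3 comparisons; dashed lines give the same percent over all 19938 genes. At day 4 versus day 0 all 4 Timp genes, 3 of 4 Lox genes and 10 of 18 Adamts genes were higher, and 5 of 34 Adam genes were.

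The inhibitors rose as a family. Timp3, the inhibitor that stays bound to the matrix and also blocks Adam17 and Adamts enzymes, had log2 intensities of 9.53 and 9.28 at day 0, then 10.90 and 11.04 at day 3 and 11.81 and 11.75 at day 4. The 3 days did not overlap, and each step passed the test. The change was 2.38 ± 0.09 log2 units (SE) at day 4 versus day 0, or 5.19-fold (adjusted p = 9.9e-07), and 0.81 ± 0.09 between day 4 and day 3 (adjusted p = 0.0013). Timp1, a soluble inhibitor of most Mmps, read 8.81 and 8.77 on the day 0 arrays, 9.80 and 9.74 on those of day 3, and 9.96 and 10.09 on those of day 4. It was 1.23 ± 0.06 log2 units higher at day 4 than at day 0 (2.35-fold, adjusted p = 3.6e-06), most of which was present at day 3. Timp2, which also serves as the adaptor through which Mmp14 activates pro-Mmp2, read 9.70 and 9.55 before RA, 10.05 and 9.98 at day 3, and 10.37 and 10.43 at day 4. Its rise of 0.77 ± 0.07 log2 units (1.71-fold, adjusted p = 5.7e-05) was split about evenly between the days before and after day 3.

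The further rise of Timp1 and Timp2 between day 4 and day 3 was less secure than that of Timp3. For Timp1 (0.25 log2 units, adjusted p = 0.026) the adjusted p was 0.075 without day 3 replicate 1, 0.12 without day 3 replicate 2 and 0.13 without day 4 replicate 2. For Timp2 (0.38 log2 units, adjusted p = 0.0076) it was 0.051 without day 4 replicate 2. Timp4 stayed dim, at 5.05 and 5.08 on day 0, 5.13 and 5.08 on day 3, and 5.24 and 5.42 on day 4. Its change of 0.27 ± 0.07 log2 units at day 4 versus day 0 passed (adjusted p = 0.017) but lay below the detection limits. With day 0 replicate 1, day 0 replicate 2 or day 4 replicate 2 left out, the adjusted p was 0.074, 0.054 or 0.083.

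The lysyl oxidases moved by large amounts and in both directions. Loxl1, which is needed for elastic fibres, read 7.53 and 6.91 at day 0, then 9.17 and 9.14 at day 3 and 10.12 and 10.03 at day 4. The day 0 arrays differed by more than those of the other days, and all 3 days were apart. Loxl1 was 2.86 ± 0.17 log2 units higher at day 4 than at day 0 (7.24-fold, adjusted p = 8.3e-06). Lox, the founding collagen and elastin crosslinker, read 4.69 and 5.37 on the day 0 arrays, 6.85 and 7.11 on those of day 3, and 7.78 and 7.71 on those of day 4. The gap between the day 0 arrays of Lox, 0.677 log2 units, was the widest between the arrays of a pair among all 87 genes, and both arrays were below 6. Lox rose by 2.72 ± 0.20 log2 units (6.59-fold, adjusted p = 2.1e-05) at day 4 versus day 0. Loxl3 read 7.47 and 7.27 before RA, 8.23 and 8.22 at day 3, and 8.67 and 8.67 at day 4, a rise of 1.30 ± 0.07 log2 units (2.46-fold, adjusted p = 6.0e-06).

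Loxl4 went the other way. It read 8.26 and 8.03 at day 0, then 6.04 and 5.98 at day 3 and 5.98 and 6.17 at day 4. Loxl4 was 2.07 ± 0.09 log2 units lower at day 4 than at day 0 (4.21-fold, adjusted p = 2.1e-06), with all of the measured fall in place by day 3 and an end at the intensity limit, so that its size too may be understated. Its second, dimmer probe set fell by 1.87 log2 units. Thus 3 crosslinkers rose and 1 fell between the same arrays. The further rise from day 3 passed for Loxl3 (0.44 log2 units, adjusted p = 0.0058), for Loxl1 (0.92, adjusted p = 0.0090) and for Lox (0.77, adjusted p = 0.028). For Loxl1 it was lost without day 4 replicate 1 (adjusted p = 0.051). For Lox it was lost without any 1 of the 4 arrays of those days, with adjusted p of 0.14 and 0.054 without day 3 replicates 1 and 2 and of 0.11 and 0.10 without day 4 replicates 1 and 2.

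**Figure D3:**
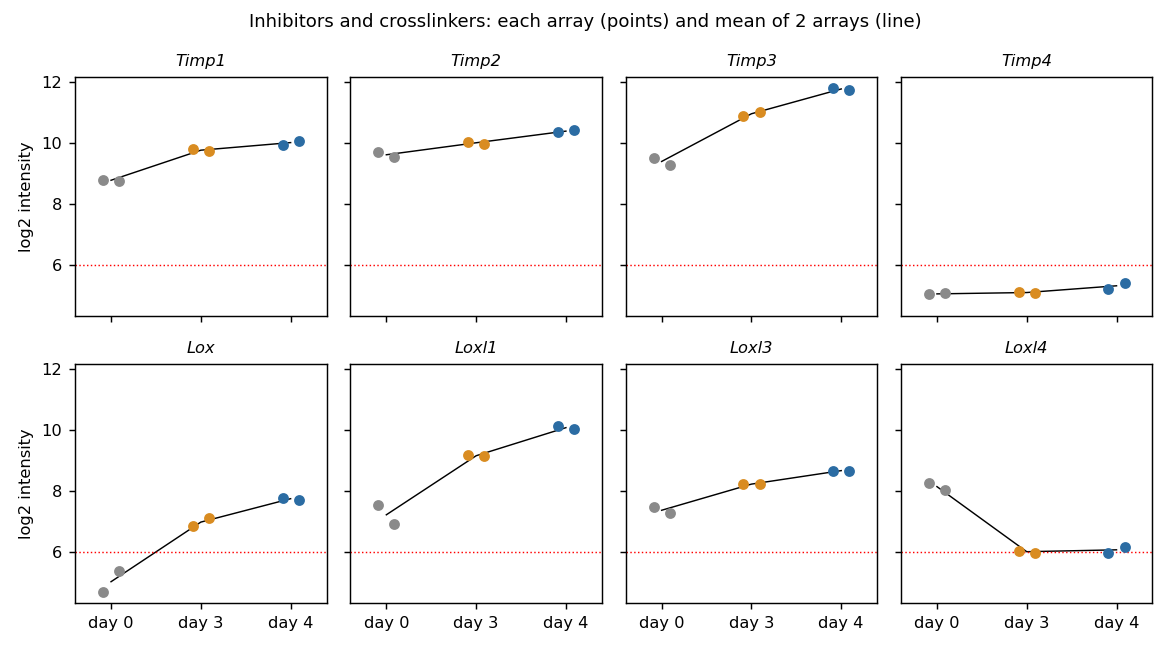
Log2 intensity of the 4 Timp and 4 Lox genes at day 0, 3 and 4, with a point for each of the 2 arrays of a day and a line through their means; the dotted line is the intensity limit of 6. Timp1, Timp2, Timp3, Lox, Loxl1 and Loxl3 climb with each day, Loxl4 drops by day 3, and Timp4 lies below 6 on all arrays.

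Of the 22 Mmp genes, 7 rose (31.8%, against 25.9% of all genes) and 2 fell (9.09%, against 25.6%) at day 4 versus day 0. The 2 gelatinases moved in opposite directions. Mmp2, gelatinase A, read 11.49 and 11.45 on the day 0 arrays, 12.41 and 12.38 on those of day 3, and 12.73 and 12.72 on those of day 4. It was 1.25 ± 0.05 log2 units (2.38-fold) higher at day 4 than at day 0 (adjusted p = 1.3e-06). Mmp9, gelatinase B, read 8.66 and 8.69 before RA, 5.94 and 6.04 at day 3, and 5.76 and 5.86 at day 4. Mmp9 thus reached the intensity limit of 6 by day 3. The measured fall was 2.87 ± 0.06 log2 units (7.30-fold, adjusted p = 1.1e-07), and since it ends at background intensities its true size may be larger. Mmp14, the membrane protease that activates pro-Mmp2, read 9.55 and 9.42 at day 0, then 10.39 and 10.30 at day 3 and 10.71 and 10.67 at day 4. Its rise of 1.21 ± 0.07 log2 units (2.31-fold, adjusted p = 4.6e-06) was close in size to that of Mmp2, and Timp2, the third part of that activation complex, rose as well.

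Mmp11 and Mmp16 changed most among the Mmps that rose. Mmp11, stromelysin 3, is activated inside the cell by furin and read 8.44 and 8.43 on the day 0 arrays, 10.44 and 10.42 on those of day 3, and 10.72 and 10.75 on those of day 4. It was 2.30 ± 0.05 log2 units higher at day 4 than at day 0 (4.91-fold, adjusted p = 1.1e-07). Mmp16, a membrane-type Mmp, read 7.31 and 7.02 before RA, 9.89 and 9.71 at day 3, and 9.50 and 9.38 at day 4. Its rise at day 4 was 2.27 ± 0.11 log2 units (4.83-fold, adjusted p = 2.3e-06), and it was 0.36 log2 units lower at day 4 than at day 3 (adjusted p = 0.042). That small fall did not hold without any 1 of the 4 arrays of those days, with adjusted p of 0.20 and 0.058 without day 3 replicates 1 and 2 and of 0.081 and 0.19 without day 4 replicates 1 and 2. Mmp19, a basement membrane protease, rose late, with 5.70 and 5.73 at day 0, then 6.19 and 6.10 at day 3 and 7.09 and 6.73 at day 4. It was 2.30-fold higher at day 4 than at day 0 (adjusted p = 7.0e-05) and 0.77 log2 units higher than at day 3 (adjusted p = 0.0033).

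Mmp25, a membrane-type Mmp held by a lipid anchor, fell with Mmp9. It read 7.15 and 7.25 on the day 0 arrays, 6.03 and 6.10 on those of day 3, and 6.05 and 6.11 on those of day 4, so it too ended at the detection limit. Mmp25 was 1.12 ± 0.06 log2 units lower at day 4 than at day 0 (2.18-fold, adjusted p = 5.2e-06). Mmp17, the other lipid-anchored Mmp, was lower at day 3 (by 0.39 log2 units, adjusted p = 0.0045) and at day 4 differed from day 0 by -0.13 log2 units, which did not pass (adjusted p = 0.22). The smaller rises at day 4 were those of Mmp23 (0.58 log2 units, adjusted p = 0.00024) and of Mmp24 (0.22, adjusted p = 0.012), which was below detection. For Mmp24 the adjusted p was 0.058 with day 0 replicate 1 left out and 0.065 with day 4 replicate 1 left out.

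Most Adam genes did not pass the test. Of 34, 5 rose and 1 fell at day 4 versus day 0 (17.6% passed, against 51.5% of all genes), with 23 of the 34 below detection. The main sheddases differed from each other. Adam10, which cuts Notch receptors and cadherins, read 9.91 and 9.87 before RA, 10.56 and 10.61 at day 3, and 10.73 and 10.62 at day 4. It was 0.78 ± 0.06 log2 units higher at day 4 than at day 0 (1.72-fold, adjusted p = 2.6e-05). Adam17, which releases Tnf and ligands of the Egf receptor, read 9.95 and 9.98 at day 0, 10.08 and 10.09 at day 3, and a mean of 10.03 at day 4. Its change of 0.06 ± 0.05 log2 units at day 4 did not pass (adjusted p = 0.37).

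Adam12, a protease of mesenchyme and muscle precursors, rose most among the Adams. It read 7.00 and 6.81 at day 0, then 9.09 and 8.83 at day 3 and 9.05 and 8.97 at day 4. The rise of 2.10 ± 0.10 log2 units (4.28-fold, adjusted p = 2.6e-06) was complete at day 3. Adam11, Adam22 and Adam23 have no working active site and bind secreted Lgi proteins on neurons, and these 3 close relatives moved apart. Adam22 read 7.10 and 6.97 on the day 0 arrays, 8.24 and 8.31 on those of day 3, and 8.38 and 8.26 on those of day 4, a rise of 1.28 ± 0.07 log2 units (2.43-fold, adjusted p = 5.4e-06). Adam23 read 9.19 and 9.26 before RA, 7.94 and 7.94 at day 3, and 7.26 and 7.23 at day 4. Adam23 was the one member that was lower in all 3 comparisons, by 1.98 ± 0.05 log2 units at day 4 versus day 0 (3.94-fold, adjusted p = 2.3e-07) and by 0.70 at day 4 versus day 3 (adjusted p = 0.00044). Adam11 rose by 0.42 log2 units at day 4 versus day 0 (adjusted p = 0.00089).

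The broadly expressed proteases Adam9, Adam15 and Adam19 did not pass at day 4 versus day 0. Adam19 read 10.41 and 10.40 at day 0, then 10.58 and 10.34 at day 3 and 10.58 and 10.37 at day 4, and its changes of 0.07 and 0.06 log2 units at day 4 and day 3 did not pass (adjusted p = 0.58 and 0.67). Adam9 was 0.09 log2 units from day 0 at day 4 (adjusted p = 0.24), and Adam15 was -0.11 (adjusted p = 0.19). At day 3 Adam15 was 0.39 log2 units lower (adjusted p = 0.0015), and Adam9 was 0.22 higher (adjusted p = 0.013; 0.059 without day 0 replicate 2 and 0.072 without day 3 replicate 2). Adam5, a sperm gene, passed at day 4 with 0.49 log2 units (adjusted p = 0.0036), at intensities of 5.54 and 5.42 in day 4 EBs and 5.13 and 4.87 in day 0 EBs that are all below the limit.

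**Figure D4:**
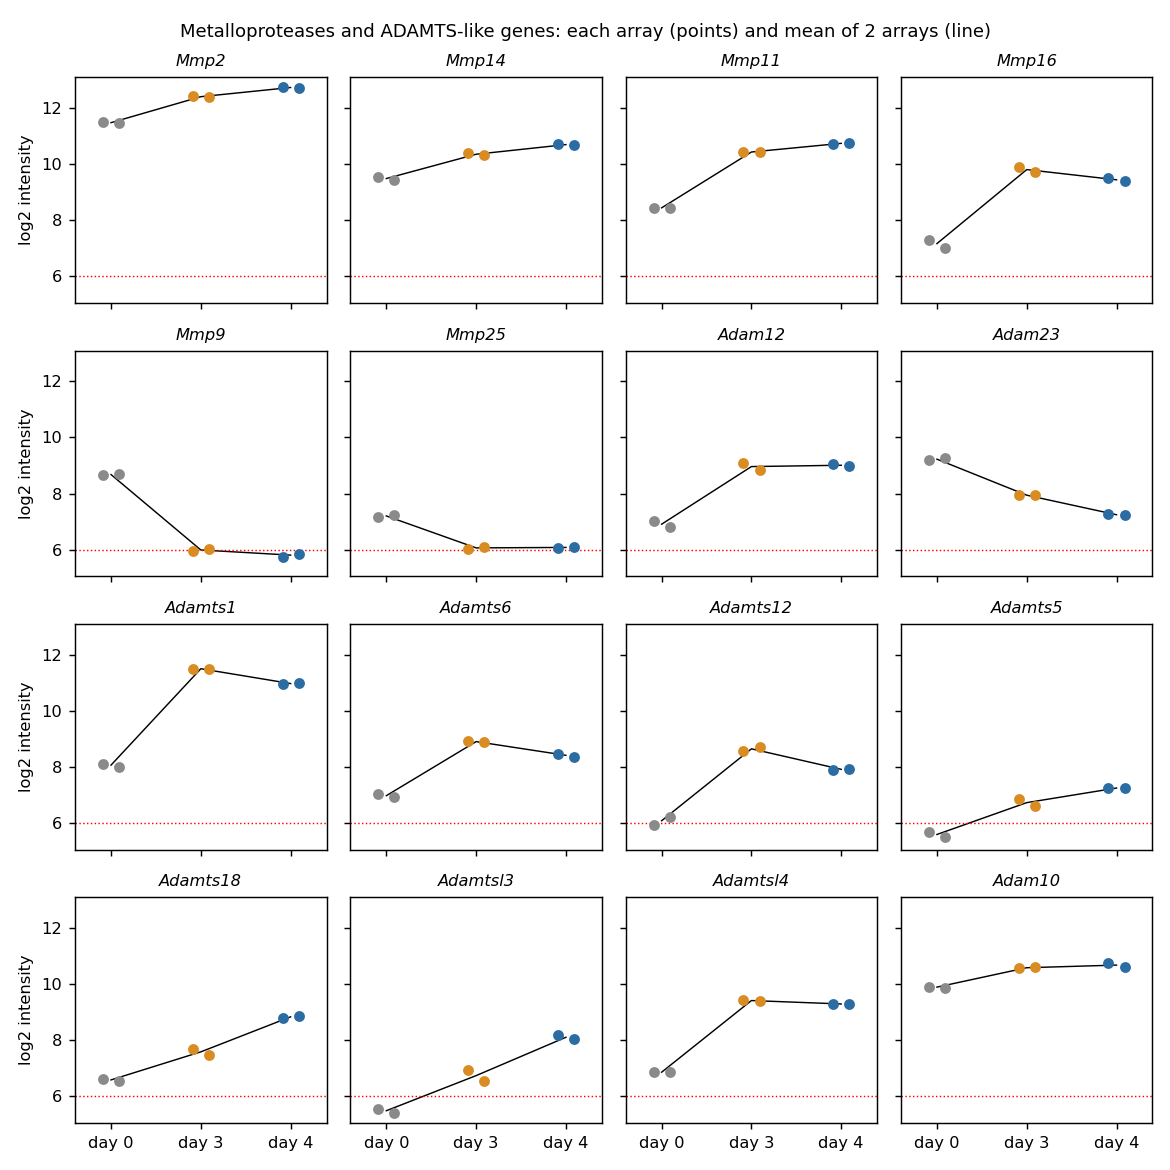
Log2 intensity of 16 protease and ADAMTS-like genes at day 0, 3 and 4, with a point for each of the 2 arrays of a day and a line through their means; the dotted line is the intensity limit of 6. Mmp2, Mmp14, Mmp11, Adamts5, Adamts18 and Adamtsl3 climb through day 4, Adamts1, Adamts6 and Adamts12 are highest at day 3, and Mmp9, Mmp25 and Adam23 drop.

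Of the 18 Adamts genes, 10 were higher and 4 lower at day 4 versus day 0 (77.8% passed, against 51.5% of all genes and 68.6% of genes not below detection, with 2 of these 18 below detection). Adamts1, which cuts the proteoglycans versican and aggrecan, had the largest measured rise of the 87 genes at day 3 versus day 0. It read 8.12 and 8.01 on the day 0 arrays, 11.49 and 11.50 on those of day 3, and 10.95 and 10.99 on those of day 4. The change was 3.43 ± 0.06 log2 units (10.8-fold) at day 3 versus day 0 (adjusted p = 5.2e-08) and 2.90 ± 0.06 (7.48-fold) at day 4 versus day 0 (adjusted p = 8.1e-08). At day 4 it was level with Loxl1 and Lox, and their order was not settled. Without day 0 replicate 1 the Loxl1 log2 change, day 4 versus day 0, was 3.17 and the Adamts1 log2 change, day 4 versus day 0, was 2.96. Without day 0 replicate 2 the Lox log2 change, day 4 versus day 0, was 3.06, and that of Adamts1 was 2.85. Adamts1 was 0.53 log2 units lower at day 4 than at day 3 (adjusted p = 0.0013).

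The same shape, up at day 3 and partly down again at day 4, was seen in 3 more Adamts genes. Adamts12 read 5.95 and 6.22 before RA, 8.57 and 8.72 at day 3, and 7.89 and 7.94 at day 4, with a difference of -0.73 log2 units at day 4 versus day 3 (adjusted p = 0.0025). Adamts6 read 7.03 and 6.92, then 8.93 and 8.87, then 8.46 and 8.36 on these days, with -0.49 (adjusted p = 0.0024). Adamts10, a relative of Adamts6 that binds fibrillin, read 8.60 and 8.69, then 9.72 and 9.65, then 9.28 and 9.30, with -0.40 (adjusted p = 0.0034). All 4 remained above day 0 at day 4, by 2.90 log2 units for Adamts1, 1.83 for Adamts12, 1.44 for Adamts6 and 0.64 for Adamts10. These falls at day 4 versus day 3 held when each array was left out in turn.

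Other Adamts genes went on climbing. Adamts18 read 6.61 and 6.57 at day 0, then 7.70 and 7.48 at day 3 and 8.80 and 8.87 at day 4. It was 2.25 ± 0.08 log2 units higher at day 4 than at day 0 (4.74-fold, adjusted p = 6.7e-07) and 1.25 ± 0.08 higher at day 4 than at day 3 (adjusted p = 0.00024). Adamts5, an aggrecanase and versicanase like Adamts1, read 5.69 and 5.49 on the day 0 arrays, 6.86 and 6.59 on those of day 3, and 7.25 and 7.24 on those of day 4. Its rise at day 4 was 1.65 ± 0.10 log2 units (3.15-fold, adjusted p = 8.9e-06). Adamts19 rose by 1.42 ± 0.15 log2 units at day 4 versus day 0 (2.68-fold, adjusted p = 0.00016), with 7.92 and 7.68 in day 4 EBs and 6.16 and 6.59 in day 0 EBs. For Adamts5 the step between day 4 and day 3 (0.52, adjusted p = 0.010) was lost without day 4 replicate 1 or 2 (adjusted p = 0.051 and 0.056), and for Adamts19 (0.70, adjusted p = 0.016) without day 3 replicate 1 or day 4 replicate 1 (0.093 and 0.086).

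Adamts9, which also cuts versican, reached its new level by day 3. It read 10.53 and 10.39 before RA, 11.41 and 11.35 at day 3, and 11.42 and 11.41 at day 4, a rise of 0.96 ± 0.06 log2 units (1.94-fold, adjusted p = 1.4e-05). All 6 probe sets of Adamts9 were above day 0 at day 4, by 0.34 to 0.999 log2 units. Adamts7, which like Adamts12 cuts the cartilage protein Comp, rose by 0.53 log2 units (adjusted p = 0.00034).

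Adamts3 and Adamts14 trim the N-terminal end of procollagens, and both fell by small amounts on the probe sets used. Adamts3 read 8.81 and 8.72 at day 0, then 8.28 and 8.26 at day 3 and 8.62 and 8.54 at day 4. It was 0.49 ± 0.06 log2 units lower at day 3 than at day 0 (adjusted p = 0.00032), and all 16 probe sets of the gene were below day 0 at day 3 and at day 4. At day 4 versus day 0 they ranged from -0.09 to -0.75 log2 units, and the brightest, used here, was at -0.19. The difference of -0.19 at day 4 (adjusted p = 0.033) was lost without day 0 replicate 1 (adjusted p = 0.16), day 3 replicate 1 or 2 (0.054 each) or day 4 replicate 2 (0.15), and with median centring or cyclic loess. Adamts14, its relative, was 0.28 log2 units lower at day 4 (adjusted p = 0.0034). Its day means were 6.51 at day 0 and 6.23 at day 4, and those of Adamts15 were 6.63 and 6.35. The day 4 calls of Adamts14 and Adamts15 were lost where a change of more than 1.2-fold was required. Bmp1, which trims the other end of procollagens, was 0.23 log2 units higher at day 4 (adjusted p = 0.045). Adamts15 was 0.29 lower (adjusted p = 0.0067) and Adamts20 0.34 lower (adjusted p = 0.012), and for Adamts20 the adjusted p was 0.059 with day 0 replicate 2 left out and 0.074 with day 4 replicate 1 left out. Adamts8 fell by 0.38 log2 units at day 3 versus day 0 (adjusted p = 0.022), with an adjusted p of 0.13 without day 0 replicate 2 and 0.11 without day 3 replicate 1. Adamts17, the gene with 5 probe sets of mixed direction, was level, at 9.05 to 9.11 on all 6 arrays for the brightest.

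Adamts-like proteins share the binding domains of the Adamts enzymes but have no protease domain, and 3 of the 5 rose strongly. Adamtsl4, which binds fibrillin and helps to anchor the eye lens, read 6.86 and 6.86 on the day 0 arrays, 9.43 and 9.40 on those of day 3, and 9.30 and 9.29 on those of day 4. It was 2.43 ± 0.05 log2 units higher at day 4 than at day 0 (5.39-fold, adjusted p = 8.2e-08). Adamtsl3 read 5.56 and 5.42 before RA, 6.93 and 6.56 at day 3, and 8.18 and 8.03 at day 4. Its day 0 arrays were below 6, so the rise by day 3 may be understated. The measured rise was 2.62 ± 0.12 log2 units at day 4 versus day 0 (6.13-fold, adjusted p = 2.4e-06) and 1.37 ± 0.12 at day 4 versus day 3 (adjusted p = 0.00063). Adamtsl1 rose by 1.27 ± 0.06 log2 units at day 4 versus day 0 (2.41-fold, adjusted p = 3.4e-06), and its second probe set by 0.59. Adamtsl2 was -0.30 log2 units at day 4 (adjusted p = 0.063), and Adamtsl5 was 0.25 lower (adjusted p = 0.022), with an adjusted p of 0.115 when day 0 replicate 1 and 0.118 when day 4 replicate 1 was left out.

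**Figure D5:**
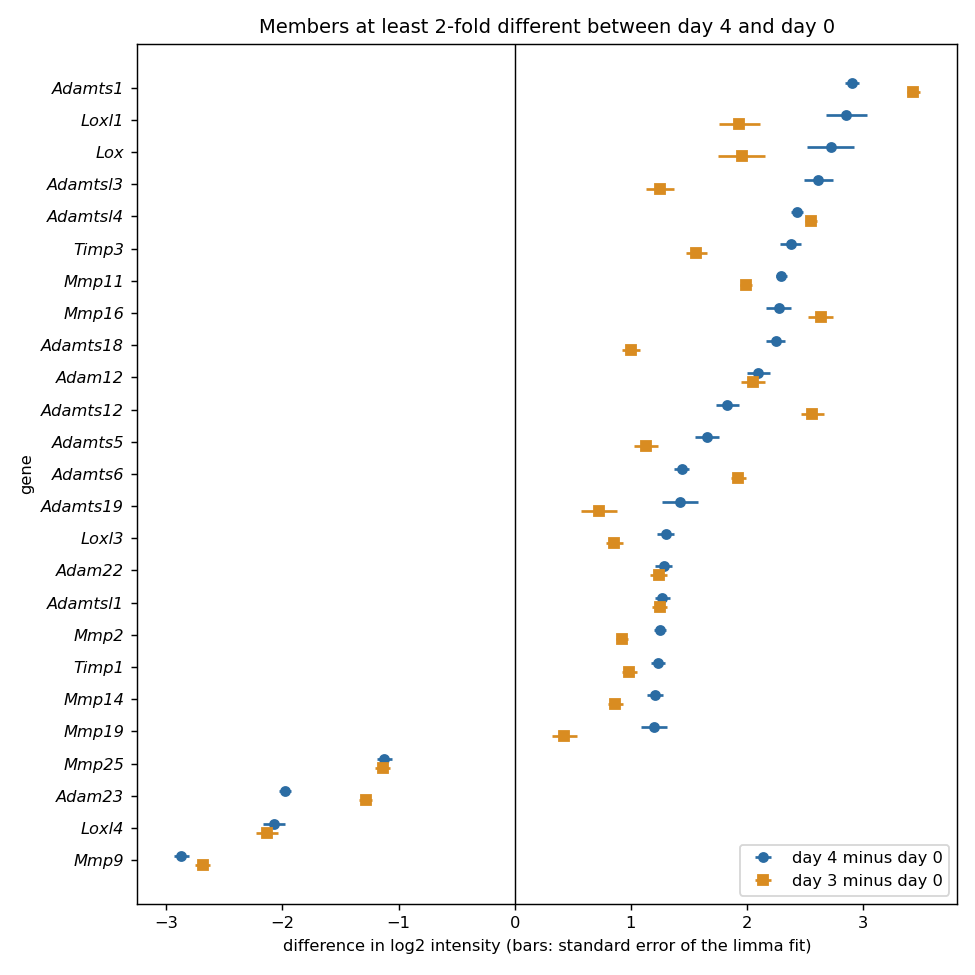
Difference in log2 intensity at day 4 versus day 0 (circles) and day 3 versus day 0 (squares) for the 25 genes at least 2-fold different at day 4, with bars for the standard error of the limma fit. Of these, 21 rose, by up to 2.90 (Adamts1) and 2.86 (Loxl1), and 4 fell, with Mmp9 at -2.87 and Loxl4 at -2.07 both ending at the intensity limit; both comparisons share the day 0 arrays.

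Over the 3 comparisons the members fell into a few courses. In 14 genes all 3 comparisons were higher, namely Mmp2, Mmp11, Mmp14, Mmp19, Adamts5, Adamts18, Adamts19, Adamtsl3, Timp1, Timp2, Timp3, Loxl1, Loxl3 and Lox. In 9 genes the day 3 and day 4 levels were both above day 0 with no call between them, among them Adam10, Adam12, Adam22, Adamts9, Adamtsl1 and Adamtsl4. In 6 genes, Mmp16, Adam11, Adamts1, Adamts6, Adamts10 and Adamts12, both were above day 0 and day 4 was below day 3. In 7 genes, Mmp9, Mmp25, Adamts14, Adamts15, Adamts20, Adamtsl5 and Loxl4, both were below day 0 with no call between them. The test passed in none of the 3 comparisons for 36 genes. When each array was left out in turn, 35 of 41 calls held at day 4 versus day 0 and 38 of 47 at day 3 versus day 0, but only 12 of 28 at day 4 versus day 3. The 12 were the rises of Mmp2, Mmp11, Mmp19, Adamts18, Adamtsl3, Timp3 and Loxl3 and the falls of Adam23, Adamts1, Adamts6, Adamts10 and Adamts12. The 21 rises of that last day became 12 without day 3 replicate 1, 12 without day 4 replicate 2 and 43 with each array centred on its median. Median centring moved the median change of all genes by more than 0.1 log2 units there, and 44.3% of all genes were then higher. The day 3 call of Mmp19 (0.43 log2 units, adjusted p = 0.014) was among those lost, with adjusted p of 0.065 and 0.053 without day 0 replicates 1 and 2 and of 0.077 without day 3 replicate 1.

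Other genes that act on the same matrix were taken from lists by function. Of 12 measured genes of inhibitors and related proteins outside the Timp family, 9 rose and 1 fell at day 4 versus day 0. Their median change was 0.60 log2 units against -0.00 over all genes. The list goes by family as well as by function, so the count is not one of protease inhibitors alone. Of all genes, 25.9% rose and 25.6% fell in this comparison. Reck, a membrane-anchored inhibitor of Mmp2, Mmp9 and Mmp14, read 11.12 and 11.09 in day 4 EBs, against 9.57 and 9.48 in day 0 EBs (1.58 log2 units, adjusted p = 1.0e-06). The serpins Serping1 and Serpinf1 rose by 2.24 and 1.73 log2 units, and Spock3, a proteoglycan that inhibits membrane-type Mmps, by 2.32. Spint1, an inhibitor of hepsin and matriptase on epithelial cells, fell by 1.79. Of 14 measured genes that modify, fold or crosslink collagen, 10 rose and 2 fell, with a median of 0.45 log2 units. The transglutaminase Tgm2 rose by 1.96 and the prolyl hydroxylase P4ha3 by 1.61, and Pcolce2, an enhancer of procollagen trimming, fell by 2.43 log2 units.

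Of 20 genes of other secreted or lysosomal proteases and related proteins, 9 rose and 3 fell at day 4 versus day 0. Their median change was 0.11 log2 units. The shares over all genes were again 25.9% and 25.6%. Not all 20 encode proteases, since the receptor gene Plaur is among the falls and the heparanase gene Hpse among the rises. Plat, the tissue plasminogen activator, read 11.73 and 11.73 in day 4 EBs, against 7.72 and 7.27 in day 0 EBs, a difference of 4.24 log2 units (adjusted p = 3.9e-07). The receptor of the other activator, Plaur, fell by 1.01 log2 units. Of 19 measured substrates, 5 rose and 10 fell, with a median of -0.16. Among matrix substrates the collagen genes Col3a1 and Col1a2 rose by 2.28 and 1.89 log2 units. Col4a1 of basement membranes (-0.82), Col1a1 (-0.16), versican (Vcan, -0.35) and fibrillin 2 (Fbn2, -0.30) were lower at day 4 than at day 0. At day 3 Col4a1 and Col1a1 were lower too, but Vcan and Fbn2 were higher than at day 0. The day 3 rises were 0.37 log2 units for Vcan (adjusted p = 0.0019) and 0.48 for Fbn2 (adjusted p = 0.00023). Of the cell surface substrates, Cd44 (-2.64 log2 units), Cdh1 (E-cadherin, -2.25), Hbegf (-2.18), Notch1 (-1.77) and Tgfa (-0.41) fell and Pdpn (0.85) rose. Notch2 and Cdh2 (N-cadherin) did not pass at day 4, with 0.12 and 0.02 log2 units.

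The EBs hold several cell types, and markers of some moved on the same days. Of 4 endothelial markers, 3 rose and Kdr fell at day 4 versus day 0, and Emcn, the largest, rose by 4.75 log2 units. The summed endothelial level was 11.99 and 11.97 in day 0 EBs, 12.34 and 12.42 in day 3 EBs and 12.25 and 12.19 in day 4 EBs, so it was highest at day 3. Such sums give most weight to the brightest probe sets. Of 5 fibroblast markers 2 rose and 2 fell at day 4 versus day 0, with a median change of -0.16 log2 units. Dcn rose by 3.15 and Col1a2 by 1.89, and Thy1 (-0.83) and Col1a1 (-0.16) fell. Their summed level was 10.82 in both day 4 arrays and 10.32 and 10.25 in day 0 arrays, so it rose although the median did not. The summed level of 3 embryonic red cell markers was 9.85 and 9.54 at day 0, then 14.42 and 14.25 at day 3 and 12.61 and 12.39 at day 4, so it too was highest at day 3. Of 4 neuronal markers 3 rose and 1 fell. Of 5 visceral endoderm markers 3 rose, Apoa1 by 1.58, Ttr by 0.59 and Afp (below detection) by 0.29 log2 units, and their summed level was 9.40 and 9.50 in day 4 EBs and 8.61 and 8.77 in day 0 EBs. The part of these cell types in the changes of the 87 genes was not tested.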

How the data were processed

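RNA of R1 EBs at day 0, 3 and 4 was measured on 6 Affymetrix Mouse Gene 1.0 ST arrays, 2 per day. The deposited values were log2 intensities that the authors had made from the scanner files in Partek with the Robust Multichip Average (RMA), which corrects background, quantile normalizes and summarises probes; no Partek version for the arrays is given in the sources used here. RMA compresses differences of dim probe sets, so changes that start or end near an intensity of 6 can be understated, and quantile normalization sets every array to 1 distribution.

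Of 35557 probe sets, 21789 had 1 gene symbol in the platform annotation, 1621 had several and were left out (3 of them naming a member), and 12147 were not named. Symbols were matched to RefSeq (GRCm38.p6) for 21698 probe sets. The brightest probe set by mean of 6 arrays stood for each of 19938 genes, of which 5 members had more than 1. All genes and arrays entered 1 linear model with a mean per day in limma 3.58.1 (R 4.3.3), with moderated variances (3 residual degrees of freedom, 4.07 prior) and Benjamini-Hochberg adjustment over all genes; every adjusted p in the text is limma's, and calls use 0.05. The script was tested on simulated data.

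The 42 members described singly were all Timp and Lox genes, the Mmp, Adam and Adamts or Adamtsl genes with the largest called changes, the 3 brightest of each family, and Mmp2, Mmp9, Mmp14, Adam10 and Adam17. Others named in the text (such as Mmp23, Mmp24, Adam5, Adam11, Adamts7 and genes of the function lists) were picked after their values were seen. The members and lists were chosen with earlier results of these data known. Each array was left out in turn, and other normalizations, moderation, filters and probe set choices were tried. The number of arrays, 2 per day, limits the precision. Figures were drawn with matplotlib.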

Additional observations from a re-analysis of the deposited data

How the results depend on the processing

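No member was called in opposite directions under any alternative run, and 38 members were below detection with an SD limit of 0.5 or the mean of all probe sets, and 44 with an intensity limit of 6.5. Median centring gave 43 rises at day 4 versus day 3, and moved the all-gene median to 0.18 there and to 0.11 at day 4 versus day 0. All genes then split into 8829 higher and 1381 lower (3156 and 2437 without centring), and into 7132 higher and 3915 lower at day 4 versus day 0 (5154 and 5106 without). The members split into 42 and 7 (32 and 9 without), and 43 and 5 (21 and 7 without). A required change of more than 1.2-fold left 4 falls at day 4 versus day 0, 6 falls at day 3 versus day 0, and 4 rises and 3 falls at day 4 versus day 3. Leaving out 1 array gave 12 to 19 rises at day 4 versus day 3. Between such fits Adam19 changed sign at day 4 (-0.031 to 0.18) and at day 3 (-0.067 to 0.18), and Loxl4 at day 4 versus day 3 (-0.034 to 0.16), none of them called. Over 109 tested changes of single members and 1523 alternative values, 1419 kept direction and call, 90 lost the call, 11 gained it and 3 changed sign. Same-numbered replicate differences of 2 days correlated only at r = 0.034 to 0.083. This shows no strong shared replicate effect, and cannot tell whether same-numbered arrays came from a shared culture. A replicate block gave 31 rises and 11 falls at day 4 versus day 0, 30 and 17 at day 3 versus day 0, and 21 and 8 at day 4 versus day 3. With 2 arrays a day, small changes near an intensity of 6 are the least certain.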

Other observations

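The cell surface partners of the main sheddases differed in direction. The tetraspanins Tspan5, Tspan10, Tspan14, Tspan15, Tspan17 and Tspan33 escort Adam10 to the membrane. Tspan5 read 10.56 and 10.52 in day 4 EBs, against 9.08 and 9.15 in day 0 EBs (1.43 log2 units, limma adjusted p = 1.4e-05). Tspan15 and Tspan17 rose by 1.47 and 0.92 log2 units, Tspan33 fell by 0.41, and Tspan10 and Tspan14 were 0.07 and 0.08 with no call. The inactive rhomboids Rhbdf1 and Rhbdf2, which escort Adam17, both fell. Rhbdf2 read 8.11 and 8.10 in day 4 EBs, against 9.02 and 8.97 in day 0 EBs (-0.89 log2 units, adjusted p = 6.2e-06), and Rhbdf1 was -0.93. Of all 13 measured activators and partners, 3 rose, 4 fell and 6 did not pass, with a median of 0.07 log2 units against -0.00 over all genes. Of all genes 25.9% rose and 25.6% fell at day 4 versus day 0, so the list as a whole lay near the array. Of the proprotein convertases, which activate protease precursors, Furin was at 0.06 log2 units at day 4 (adjusted p = 0.37), Pcsk5 at 0.15 (adjusted p = 0.25), Pcsk7 was lower (-0.44, adjusted p = 0.0014), and Pcsk6 was lower at day 3 (-0.46, adjusted p = 0.0013) and at -0.10 at day 4 (adjusted p = 0.33).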
